A study of Mus musculus with 6 samples.

Results

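The lysosomal proteases cathepsin A, B, C, D, H, L, S and Z (Ctsa, Ctsb, Ctsc, Ctsd, Ctsh, Ctsl, Ctss and Ctsz), the asparaginyl endopeptidase legumain (Lgmn) and the lysosomal thiol reductase Ifi30 were followed across cell types of the mouse spinal cord and between states of its myeloid cells. These 10 genes were taken by name from a table of 18792 genes, and all 10 were in it. Cells of Nd6 and WT mice with experimental autoimmune encephalomyelitis (EAE, an inflammatory demyelinating disease raised by immunization with a MOG peptide) and of non-immunized Nd6 and WT control mice underwent single-cell RNA sequencing in droplets. The Nd6 strain bears a point mutation in the complex I gene mt-Nd6 of the mitochondrial genome, and the EAE mice were taken 30 days after immunization. Mice were perfused with transcription inhibitors and their spinal cords digested, and the labels list 2 Nd6 EAE, 2 WT EAE, 1 Nd6 control and 1 WT control library, and do not say how many mice a library holds.

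The deposited table held 13614 cells. A cell's name carries its barcode and 1 of 6 endings with no link to a library, so all cells were treated as 1 pooled sample, Nd6 was not compared with WT, EAE was not compared with control, and comparisons are given as values without p. Cells with the same ending form 6 sets, called A to F here, from the largest (4633 cells) to the smallest (809 cells). The labels do not tie these sets to study groups, but the sets stand apart. Mean Apoe in myeloid cells was 945 and 1080 in sets A and C, 522 in set F, 332 in set B, and 16.8 and 11.6 in sets D and E, on the scale explained next. The deposited values are whole numbers with a total of 687 to 1578 per cell, and the number of genes above 0 in a cell ran from 138 to 1287. Sequencing depth is unknown. Each value was divided by the total of its cell and multiplied by 10000, and is called a scaled value. A deposited value of 1 in a cell of median total corresponds to 10.4. Across the sets, 18 barcodes occurred in more than 1 set.

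Cathepsins are made as inactive precursors, reach the lysosome by mannose 6-phosphate and other sorting receptors, and are activated there at low pH. They break down material taken up by phagocytosis, and in antigen-presenting cells they also trim the invariant chain and cut proteins into the peptides that MHC class II presents. Microglia, the resident macrophages of the central nervous system, are rich in them, and Ctss is among the genes that microglia express most strongly. Many lysosomal genes carry a palindromic element called CLEAR in their promoters, which is bound by the factors TFEB, TFE3 and MITF. PU.1, encoded by Spi1, binds purine-rich sites near genes of the myeloid lineage.

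The promoters were searched because the members move in groups in the values that follow. RefSeq promoters (GRCm38.p6, from 250 bases before the start site to 50 bases from it on) were matched for 8 of the 10 genes, as 10 promoters. Ctsb and Ctsh were not matched. On both strands, 6 motifs were searched. The CLEAR palindrome TCACGTGA was in 0.974% of 32851 promoters and in those of 3 members, Ctsa, Ctsd and Ifi30. The shorter E-box CACGTG, which lies inside that palindrome, was in 7.15% of promoters and also in those of Lgmn and Ctsl. GAGGAAGT, a PU.1 site, was in 3.20% of promoters and in those of Ctss and Ctsc. TATAAA (13.6% of promoters) was found for Ctss and Lgmn, a repeat of TTTC after a gap of 2 bases (3.44%), as in interferon response elements, for Ctss, and TGACTCA (5.20%), an AP-1 site, for none. The promoter of Ctsz held none of the 6. In the 100-base stretches printed here, capitals mark TCACGTGA in Ctsa, Ctsd and Ifi30, CACGTG in Lgmn and Ctsl, and the reverse complement of GAGGAAGT in Ctss and Ctsc. A match is a run of letters and no measure of binding, and its part in the values that follow was not tested.
Ctsa, chr2:164833703-164833802, + strand: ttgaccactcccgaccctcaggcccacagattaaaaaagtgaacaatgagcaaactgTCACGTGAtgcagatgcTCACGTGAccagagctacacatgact
Ctsd, chr7:142387872-142387971, - strand: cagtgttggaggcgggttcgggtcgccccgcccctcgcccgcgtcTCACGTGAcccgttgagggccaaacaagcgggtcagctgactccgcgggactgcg
Ifi30, chr8:70766806-70766905, - strand: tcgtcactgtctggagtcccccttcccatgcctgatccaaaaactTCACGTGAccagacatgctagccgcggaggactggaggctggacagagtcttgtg
Ctss, chr3:95526716-95526815, + strand: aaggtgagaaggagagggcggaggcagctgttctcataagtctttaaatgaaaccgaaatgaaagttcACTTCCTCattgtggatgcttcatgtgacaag
Ctsc, chr7:88277889-88277988, + strand: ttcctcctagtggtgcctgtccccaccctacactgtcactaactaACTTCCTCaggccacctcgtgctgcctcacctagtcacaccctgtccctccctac
Lgmn, chr12:102439087-102439186, - strand: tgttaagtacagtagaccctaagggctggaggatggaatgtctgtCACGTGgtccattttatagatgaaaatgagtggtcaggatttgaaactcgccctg
Ctsl, chr13:64370671-64370770, - strand: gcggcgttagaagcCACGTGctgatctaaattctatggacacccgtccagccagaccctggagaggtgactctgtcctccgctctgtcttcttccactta

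Positions count the first transcribed base as 0. Ctsa carried the palindrome 2 times, from 13 bases before the start site and from 4 bases after it, in 1 of its 2 promoters. In Ctsd it began 99 bases and in Ifi30 197 bases before the start site. The PU.1 letters of Ctss spanned the start site itself. In the RefSeq annotation of this build, 5 of the 10 genes overlap other gene models: Ctsa overlaps Neurl2 and Pltp, Ctsb overlaps Fdft1, Ctss overlaps Hmgb1-ps5, Ctsz overlaps Nelfcd, and Ifi30 overlaps 6330537M06Rik. How the authors' counting treated reads in such overlaps is not given in the sources used here, so the values of these 5 genes could include or lack such reads.

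Cells were placed in classes by marker genes, none of which is one of the 10 genes. A cell entered a lineage class when at least 3 of its markers were above 0 and their scaled values summed past a limit (50, 100 for endothelial cells and 500 for oligodendrocytes). The limits were set on the marker values after these had been seen. Cells with no such lineage and at least 5 of 12 myeloid markers, summing to 100 or more, were gated as myeloid. This gave 11463 myeloid cells, 502 oligodendrocyte-, 269 endothelial-, 113 ependymal-, 107 astrocyte-, 87 T or NK cell- and 73 pericyte or smooth muscle cell-gated cells. Left out were 928 cells with no class, 23 with several and 49 in classes of under 50 cells. C1qa, a complement gene of microglia and macrophages, is among the 12 myeloid gate markers. It was above 0 in 99.2% of myeloid cells, which the gate favors, but also in 50.6% of endothelial-gated and 63.5% of oligodendrocyte-gated cells. Among the 6 non-myeloid classes this share ran from 25.7% in ependymal-gated to 89.7% in astrocyte-gated cells, and its part in the levels of those classes was not tested.

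All 10 genes had higher means in myeloid cells than in the 1151 cells of the 6 non-myeloid classes combined. The ratio lay between 2.98 for Ctsl and 4.34 for Lgmn over all sets. It lay between 2.47 (Ctsl) and 3.42 (Lgmn) in sets A, B, C and F and between 2.96 (Ctsh) and 13.3 (Ifi30) in sets D and E, where Ctss was at 7.65 and Lgmn at 8.75. Of 3607 genes with a mean scaled value of at least 0.5 in one of the 2 groups, 25.6% were 1.5-fold or more higher in myeloid cells and 28.7% that much lower. The aspartic protease Ctsd was the most abundant of the 10 in myeloid cells, with a mean scaled value of 91.4 and values above 0 in 99.0% of cells, against 28.0 and 68.6% in non-myeloid cells. The cysteine protease Ctss averaged 74.0 in myeloid cells and 19.9 in non-myeloid cells. Ctsb, which acts both as an endopeptidase and from the end of a chain, averaged 25.5 and the carboxypeptidase Ctsz 19.9 in myeloid cells, against 8.07 and 5.32 in non-myeloid cells. Ctsl, Lgmn, Ctsh, Ifi30, Ctsa and Ctsc followed, with myeloid means of 12.6, 9.96, 6.80, 5.70, 5.496 and 4.20. The table holds no transcript lengths, so the order between genes is an order of scaled values only.

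**Figure D1:**
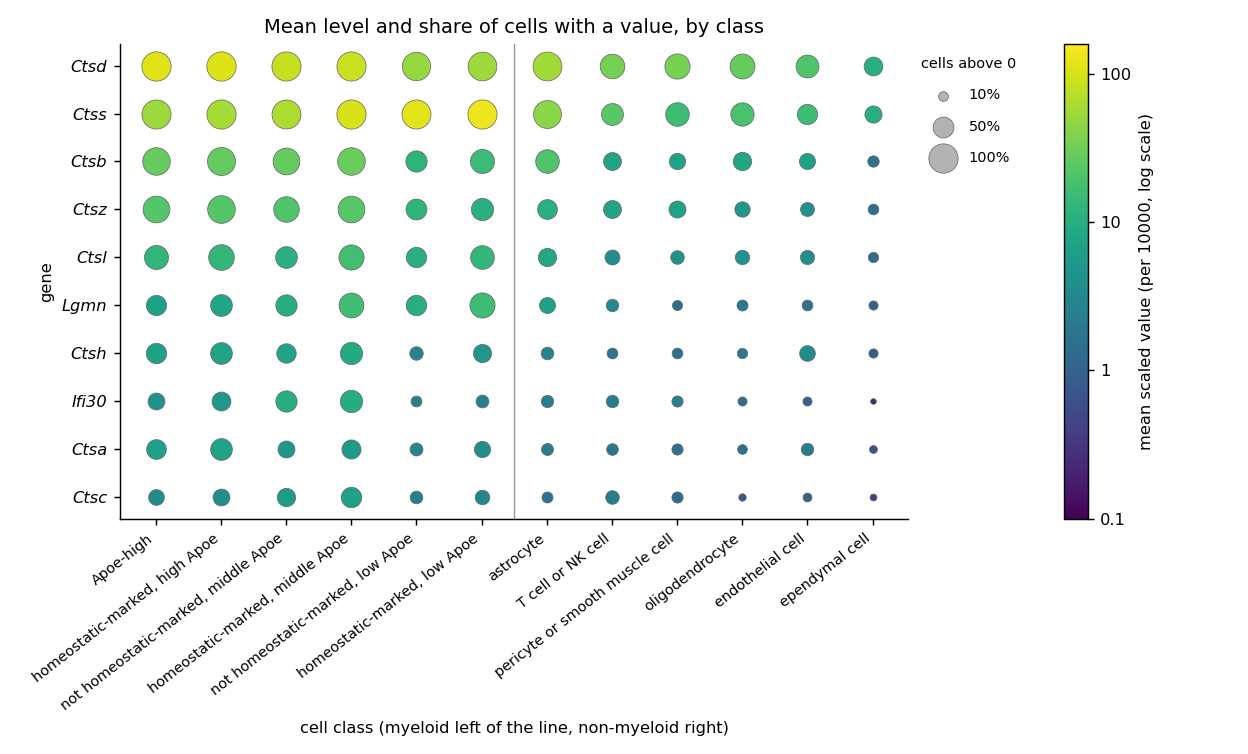
Mean scaled value (color, log scale, per 10000) and share of cells with a value above 0 (dot area) of the 10 genes, ordered by their myeloid mean, in 6 myeloid states (left of the line) and 6 non-myeloid classes (right). Ctsd reached 110 in Apoe-high cells and Ctss 131 in homeostatic-marked cells with low Apoe, and ependymal-gated cells had the lowest mean of the 12 classes for all 10 genes.

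Among the non-myeloid classes, astrocyte-gated cells stood closest to the myeloid cells for 8 of the 10 genes. They averaged 57.5 for Ctsd, 43.6 for Ctss and 20.01 for Ctsb. Their summed myeloid markers had a median of 144, against 248 in myeloid cells and 32.0 in endothelial-gated cells, and their part in these levels was not tested. Ependymal-gated cells were lowest, with 10.3 for Ctsd, 10.3 for Ctss and 1.67 for Ctsb. Without the astrocyte-gated cells the ratio of myeloid to non-myeloid means was 3.73 for Ctsb and 5.41 for Lgmn.

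The levels in non-myeloid cells moved with the set. Ctsd averaged 32.4 in endothelial-gated cells of set A, 24.8 in set B, 27.8 in set C and 30.6 in set F, against 7.53 in set D and 3.67 in set E. In myeloid cells it averaged 99.1 in sets A, B, C and F together and 54.0 in sets D and E. Ctsb in endothelial-gated cells was 8.98 in sets A, B, C and F and 1.39 in sets D and E. The sets with high myeloid Ctsd and Ctsb were therefore also those with high Ctsd and Ctsb in cells of another lineage.

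Ctsh, an aminopeptidase, did not follow this pattern in endothelial-gated cells. Its mean there was 3.72, 3.02, 3.85, 3.74, 3.55 and 2.90 in sets A to F. Sets D and E thus lay among the others, whereas their Ctsd in the same cells was far below. In sets A, B, C and F together, Ctsh in endothelial-gated cells was at 47.0% of the myeloid mean (3.40 against 7.23), below Ctsa at 49.1%. In sets D and E together, Ctsh in 91 endothelial-gated cells reached 76.4% of the mean of myeloid cells, which was 4.72. For the other 9 genes the endothelial-gated mean was at most 25.2% of the myeloid mean (Ctsa), and for Ctss, Ctsb, Ctsd, Ctsz and Lgmn between 6.32% and 9.09%. Of 4339 genes tested there, 50.3% were 1.5-fold or more higher and 24.7% that much lower in endothelial-gated than in myeloid cells. Ifi30, which reduces disulfide bonds of antigens before their presentation, was at 0 in these 91 cells.

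**Figure D2:**
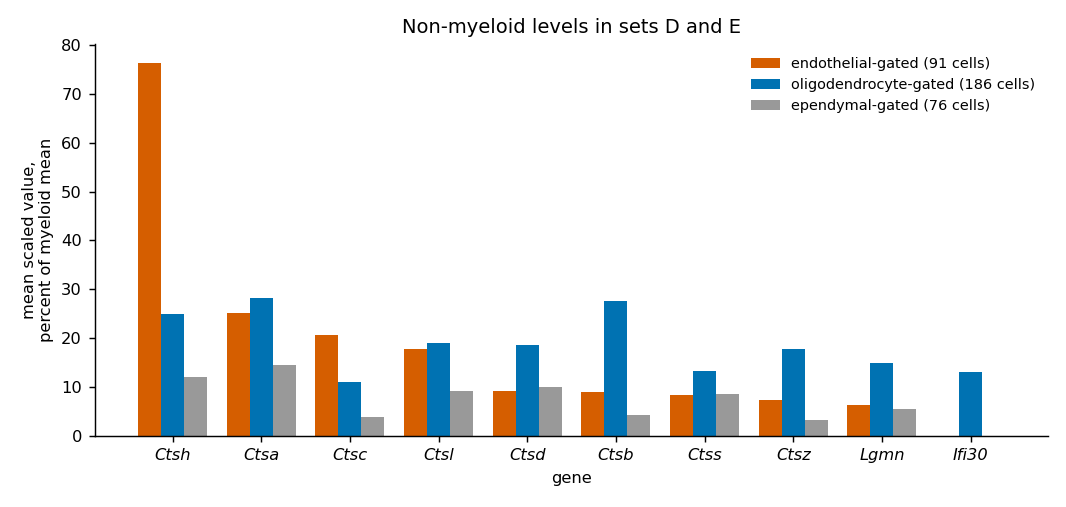
Mean scaled value in endothelial- (91), oligodendrocyte- (186) and ependymal-gated cells (76) of sets D and E as a percentage of the mean in the myeloid cells of the same sets, for each gene. The Ctsh bar of endothelial-gated cells stands at 76.4%, against 25.01% in oligodendrocyte-gated and 11.98% in ependymal-gated cells.

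In these sets, 29.7% of endothelial-gated cells had a Ctsh value above 0 (exact binomial 95% interval 20.5 to 40.2%), against 8.06% of oligodendrocyte-gated cells (4.58 to 12.95%) and 35.1% of myeloid cells. The intervals cover counting error over cells only. Endothelial-gated cells had more genes above 0, with a median of 711, than the myeloid cells, with 494, in the same sets. Ctsb, by contrast, was above 0 in 8.79% of the same endothelial-gated cells (3.87 to 16.6%) and in 22.0% of the oligodendrocyte-gated cells (16.3 to 28.7%).

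Within the myeloid cells, states were set by 2 measures that use none of the 10 genes. Cells with at least 3 of 10 homeostatic microglia markers above 0 (P2ry12, Tmem119, Siglech, Sall1, Cx3cr1, Gpr34, P2ry13, Slc2a5, Olfml3 and Sparc) are called homeostatic-marked. Apoe, an apolipoprotein that activated microglia and macrophages express strongly, was called low under a scaled value of 50, middle from 50 and high from 500. Cells with high Apoe that were not homeostatic-marked, 4453 in all, are called Apoe-high. They were compared with the 1640 homeostatic-marked cells with low Apoe. Their summed monocyte and macrophage markers (Arg1, Ccr2, Lyz2 and others) had a median of 77.5, against 0 in the homeostatic-marked cells, so that Apoe-high cells may hold infiltrating cells as well as microglia, and the 2 cannot be told apart by this gate. The limits fall in a continuum: 12.8% of the myeloid cells lay within 20% of the Apoe limit of 500, and 14.6% had exactly 3 homeostatic markers.

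In Apoe-high cells, 5 of the 10 genes were 1.5-fold or more higher than in homeostatic-marked cells with low Apoe, and 2 were 1.5-fold or more lower. Of 3277 genes with a mean of at least 0.5 in one of these states, 21.2% were that much higher and 29.0% that much lower, with a median ratio of 0.88. The median over the 10 genes was 1.56. The genes with higher means were Ctsd (110 against 53.2, 2.06-fold), Ctsz (21.8 against 10.8, 2.02-fold), Ctsb (27.7 against 15.2, 1.83-fold), Ifi30 (4.18 against 2.29, 1.83-fold) and Ctsa (6.43 against 3.66, 1.76-fold). Ctss was 0.40 times as high, at 52.9 in Apoe-high cells against 131 in homeostatic-marked cells, and Lgmn, which cleaves the precursors of other cathepsins, was 0.43 times as high, at 6.81 against 15.9. The aminopeptidase Ctsh (1.37), the dipeptidyl peptidase Ctsc (1.22) and the endopeptidase Ctsl (0.97) stayed within 1.5-fold.

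These states sat in different sets. Of the Apoe-high cells, 2992 came from set A, 1013 from set C, 234 from set F, 212 from set B and 1 each from sets D and E. Of the homeostatic-marked cells with low Apoe, 875 came from set D, 729 from set E, 23 from set B and 13 from set F. No set held 30 or more cells of both, so in the pooled ratio the state and the set cannot be told apart. Comparisons within sets A, B, C and F were therefore added after the data had been seen, between Apoe-high cells and homeostatic-marked cells with middle Apoe.

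Within the sets, Ctss, Lgmn and Ctsl were lower in Apoe-high cells in 4 of 4 sets. Ctss averaged 46.9, 80.2, 61.6 and 66.3 in Apoe-high cells of sets A, B, C and F, against 102, 92.96, 89.7 and 146 in homeostatic-marked cells with middle Apoe. The highest Apoe-high mean lay below the lowest homeostatic-marked mean, and the ratios were 0.46, 0.86, 0.69 and 0.46. Lgmn averaged 6.46, 10.5, 6.93 and 7.43 in Apoe-high cells, against 14.2, 16.4, 13.2 and 19.99 in the homeostatic-marked cells of the same sets. It was 1.5-fold or more lower in each of the 4 sets, with ratios of 0.45, 0.64, 0.53 and 0.37.

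Ctsl averaged 12.3, 15.01, 11.99 and 13.5 in Apoe-high cells of sets A, B, C and F, against 15.9, 16.5, 16.5 and 19.3 in homeostatic-marked cells with middle Apoe. Its set means did not overlap, although its pooled ratio was near 1. Homeostatic-marked cells with low Apoe, in sets D and E, had Ctsl means of 12.7 and 12.8, which are close to those of the Apoe-high cells. Set means without overlap were found for 3 of the 10 genes on the lower side and for 1 on the higher side, against 8.13% and 2.14% of 5327 genes. The same 4 genes were the ones on 1 side in all 4 sets, where 17.9% of genes were lower and 7.21% higher in each set.

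Ctsd was the gene on the higher side. It averaged 110, 112, 110 and 100 in Apoe-high cells of sets A, B, C and F, against 96.0, 86.6, 84.3 and 86.1 in homeostatic-marked cells with middle Apoe. The ratios of 1.14, 1.29, 1.31 and 1.17 all stayed under 1.5-fold, and they were smaller than the pooled 2.06. The median ratio of all genes tested was 0.83, 0.88, 0.54 and 0.86 in the same sets. None of the 10 genes was 1.5-fold or more higher in any of these 4 sets, where 25.0%, 7.91%, 10.4% and 23.8% of the genes tested were, while 35.9%, 23.3%, 61.1% and 34.1% were 1.5-fold or more lower. On the lower side stood 3 members in set A (Ctss, Lgmn and Ctsc), Lgmn alone in sets B and C, and Ctss and Lgmn in set F. The homeostatic-marked cells with middle Apoe numbered 47, 853, 45 and 143 in the 4 sets. The median number of genes above 0 was 644, 452.5, 401 and 532 in Apoe-high cells of sets A, B, C and F, against 538, 640.0, 713 and 475 in the homeostatic-marked cells, and the median sum of myeloid markers was 225, 262, 255 and 231 against 382, 277, 276 and 422. The part of either in the ratios was not tested.

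Ctsb, Ctsz, Ctsa and Ifi30, higher in the pooled comparison, had set means that overlapped. Ctsb averaged 27.2, 35.3, 28.9 and 21.2 in Apoe-high cells and 34.4, 30.6, 19.5 and 23.6 in the homeostatic-marked cells of sets A, B, C and F. Ctsz averaged 21.1, 22.7, 23.5 and 23.7 in Apoe-high cells, against 28.6, 23.2, 19.5 and 23.3 in homeostatic-marked cells. Neither gene was on 1 side in all 4 sets. Ifi30 had ratios of 1.08, 0.99, 0.94 and 0.94 and Ctsa of 1.201, 1.12, 1.36 and 0.96. Ctsc (0.47, 0.84, 0.73 and 1.08) and Ctsh (1.06, 0.95, 0.99 and 0.81) were mixed as well.

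**Figure D3:**
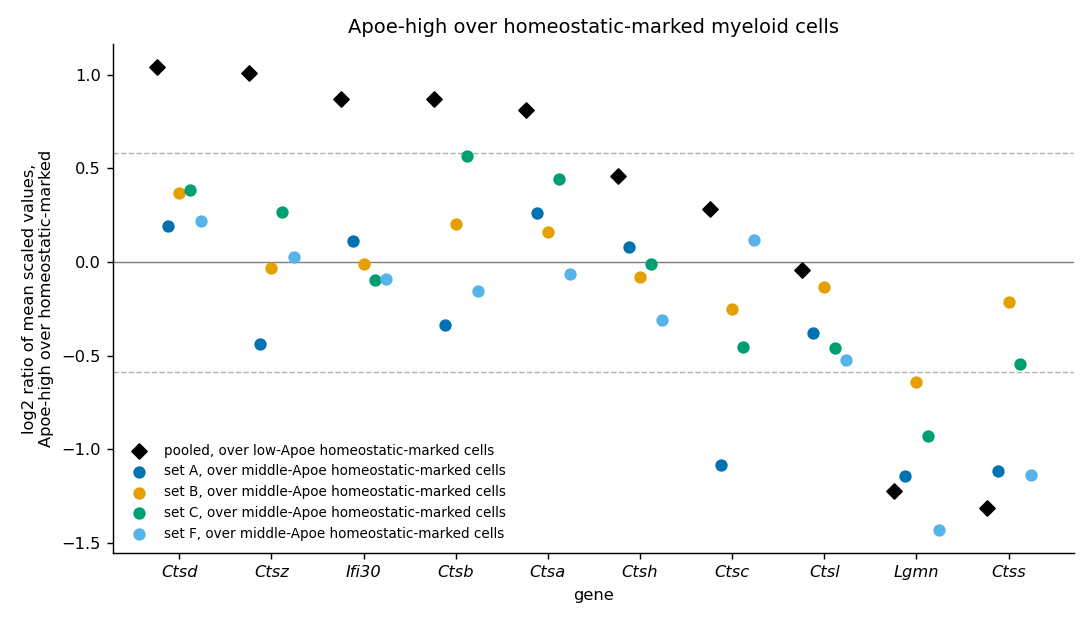
Log2 ratio of mean scaled values in Apoe-high over homeostatic-marked myeloid cells for each gene, pooled over sets against low-Apoe cells (black diamonds) and within sets A, B, C and F against middle-Apoe cells (circles). Dashed lines mark 1.5-fold. The diamonds of Ctsd, Ctsz, Ifi30, Ctsb and Ctsa lie above the upper line and all their circles below it, while Lgmn lies below the lower line in the pooled and all 4 within-set comparisons.

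Where Apoe was high in both states, the ratios differed between the sets. In set A, 2992 Apoe-high cells were compared with 894 homeostatic-marked cells with high Apoe, and the ratios of the 10 genes lay between 0.90 (Ifi30) and 1.04 (Ctsb). In that comparison 0.159% of all genes tested were 1.5-fold or more higher and 1.34% lower. Of these 894 cells, 832 had no more than 4 homeostatic markers. In set C, where 147 homeostatic-marked cells had high Apoe, Ctss was at 61.6 in Apoe-high and 87.6 in homeostatic-marked cells, a ratio of 0.70. Lgmn had a ratio of 0.77 and Ctsa of 0.68, and no member passed 1.5-fold, where 10.7% of genes tested were that much higher and 22.7% lower. In set F, 234 Apoe-high and 181 homeostatic-marked cells had ratios between 0.92 (Ctsa) and 1.46 (Ctsc). Ctss there was at 66.3 in Apoe-high and 63.5 in homeostatic-marked cells, and 11.6% of genes tested were 1.5-fold or more higher and 21.0% lower.

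In set B, by contrast, 212 Apoe-high cells had less Lgmn, Ctss and Ctsh than 62 homeostatic-marked cells with high Apoe. Lgmn was at 10.5 in Apoe-high and 21.9 in homeostatic-marked cells, a ratio of 0.48. Ctss was at 80.2 and 128, a ratio of 0.63, and Ctsh at 8.52 and 13.3, a ratio of 0.64. These 3 members were 1.5-fold or more lower and none was that much higher, where 22.3% of genes tested were higher and 31.2% lower. The other 7 had ratios between 0.68 (Ctsz) and 0.85 (Ctsd).

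The number of homeostatic markers gave a finer scale within each set. Ctss in set B averaged 64.1, 65.3, 69.2, 76.0, 91.4, 127 and 172 in myeloid cells with 0, 1, 2, 3, 4, 5 and 6 or more markers. In set F the same bins ran from 59.7 at 0 markers to 146 at 6 or more. Mean Apoe was 333 at 0 and 192 at 6 or more markers in set B, and 608 and 227 in set F. Its part in the values of Ctss, and of Lgmn below, was not tested. In set A, Ctss stayed between 44.4 and 58.7 up to 5 markers and was 113 in the 28 cells with 6 or more. In sets D and E, where nearly all cells had low Apoe, it was between 105 and 153 in every bin. Cells with few homeostatic markers thus had high Ctss in sets D and E and low Ctss in set A.

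**Figure D4:**
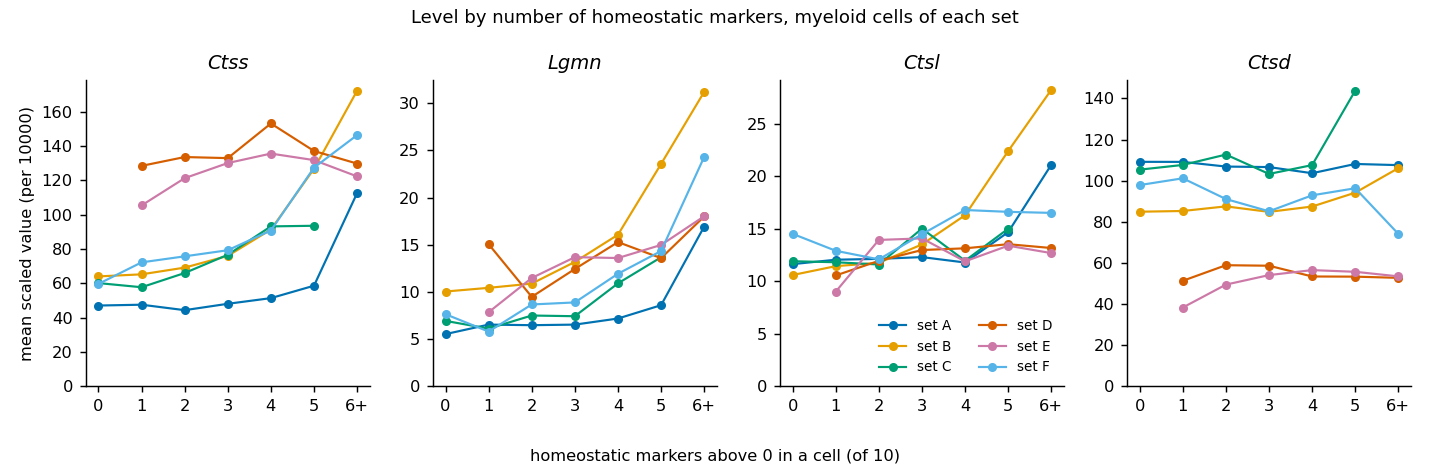
Mean scaled value of Ctss, Lgmn, Ctsl and Ctsd in myeloid cells by the number of homeostatic markers above 0, 1 line per set, for bins of at least 20 cells. Ctss was at 172 and Lgmn at 31.2 at 6 or more markers in set B, whereas Ctss in sets D and E lay between 105 and 153 throughout.

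Lgmn also went with the homeostatic markers in sets A, B, C and F, but unlike Ctss it was highest at 6 or more markers in sets D and E too. In set D, Lgmn was at 15.1, 9.49 and 18.0 with 1, 2 and 6 or more markers, and in set E at 7.86, 11.5 and 18.03. In cells with 5 or more markers against cells with none, its ratio was 2.11 in set A, 2.66 in set B, 2.28 in set C and 2.48 in set F. Ctss had ratios of 1.67, 2.27, 1.90 and 2.28 in the same sets. Both were 1.5-fold or more higher in each of the 4 sets, where 28.3%, 26.9%, 50.1% and 37.3% of genes tested were and 14.9%, 18.7%, 17.7% and 29.1% were that much lower. The median ratio of all genes tested was 1.12, 1.08, 1.51 and 1.09. In all, 3, 6, 2 and 4 of the 10 genes were 1.5-fold or more higher in these sets and none was that much lower. Ctsl reached 2.34 in set B but 1.46, 1.26 and 1.14 in sets A, C and F. Ctsd stayed between 0.88 and 1.17. Cells with 5 or more markers also had more genes above 0, for example a median of 681 against 468 in set B, and whether that bears on the ratios was not tested.

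Ctsd rose with Apoe in most bands, and it was not the only member to do so. In set B its mean was 45.8 in myeloid cells with a scaled Apoe under 50, then 62.2, 80.9, 89.3 and 109 in the bands from 50, 125, 250 and 500. In set A it was 65.1, 88.4, 104 and 116 in the bands from 125, 250, 500 and 1000. In set D, Ctsd averaged 52.7 under 50 and 74.8 in the band from 50, and in set E it averaged 52.6 and 81.7. Set F reached 101 in the band from 250 and was at 93.05 in the next. In the band from 50, Ctsd was at 62.2, 74.8, 81.7 and 66.4 in sets B, D, E and F, and in that from 125 at 65.1, 80.9 and 85.0 in sets A, B and F.

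**Figure D5:**
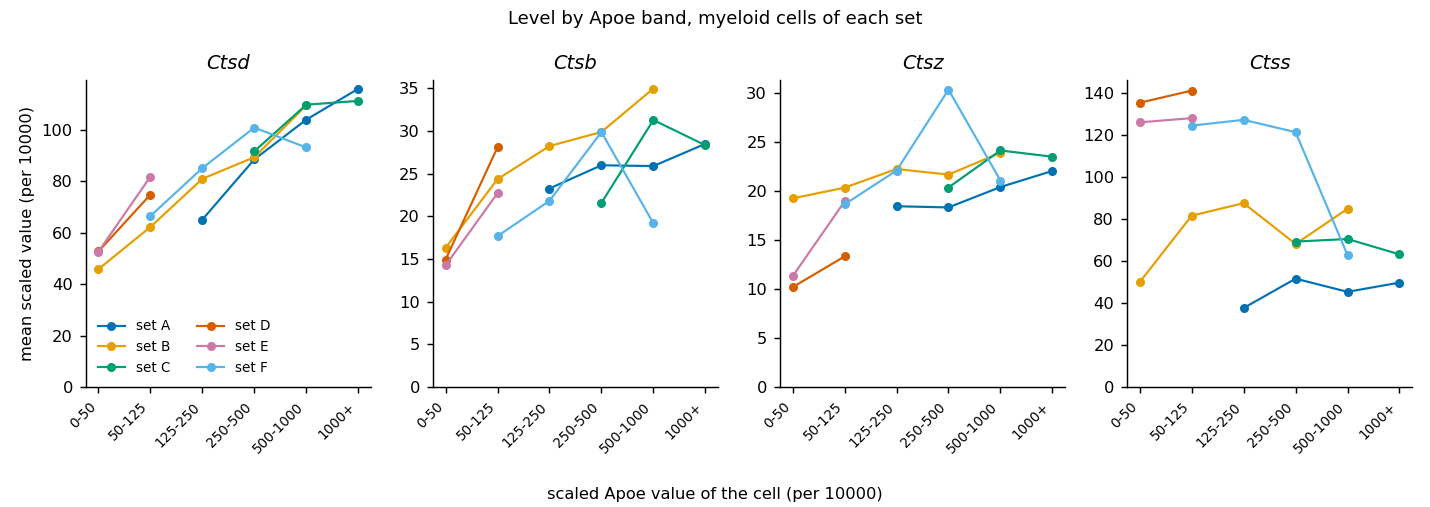
Mean scaled value of Ctsd, Ctsb, Ctsz and Ctss in myeloid cells by band of scaled Apoe, 1 line per set, for bands of at least 20 cells. Ctsd was 45.8 in the lowest and 109 in the highest band of set B and 65.1 and 116 in those of set A.

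With the cells of a set ordered by Apoe and divided into 3 equal parts, those with the most Apoe had more Ctsd than those with the least in 4 of 4 sets (A, B, C and F), at 118 against 97.8, 98.3 against 74.4, 113 against 103 and 106 against 81.7. These ratios of 1.203, 1.32, 1.097 and 1.30 were under 1.5-fold. No member was 1.5-fold or more higher in any of these sets, where 0.452%, 8.44%, 7.59% and 20.6% of genes tested were. The median ratio of all genes tested was 0.93, 0.90, 0.77 and 0.83. Summed myeloid markers had a median of 251 in the highest and 264 in the lowest part of set B, of 233 and 217 in set A, of 259 and 261 in set C and of 244 and 388 in set F. Ctss had ratios of 1.09, 0.93, 0.97 and 0.57 in these sets, and Lgmn of 1.196, 0.82, 0.82 and 0.47. These 2 were 1.5-fold or more lower in set F alone, and 4.58%, 16.3%, 35.2% and 34.9% of genes were that much lower in sets A, B, C and F.

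Homeostatic-marked cells of sets D and E with middle Apoe had more of several proteases than those with low Apoe. In set D, 40 cells with middle Apoe averaged 33.3 for Ctsb, against 15.4 in 875 cells with low Apoe, a ratio of 2.16. Ctsl (1.73), Ctsd (1.67), Ctsz (1.58) and Ctsh (1.505) were also 1.5-fold or more higher, where 30.9% of all genes tested were and 28.5% were that much lower. In set E the middle-Apoe cells numbered only 24, with ratios of 1.86 for Ctsb, 1.83 for Ctsz, 1.403 for Ctsd, 1.37 for Ctsl and 0.72 for Ctsh, where 35.8% of genes were 1.5-fold or more higher and 28.5% lower. Lgmn was lower in both sets, with ratios of 0.71 and 0.73, and Ctss had ratios of 1.21 and 0.97.

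Ifi30 and Ctsc were set apart by set B. Ifi30 averaged 10.9 in myeloid cells of set B, against 4.06, 3.02, 2.04, 2.15 and 4.81 in sets A, C, D, E and F. Ctsc averaged 6.48 in set B, against 3.48, 3.12, 2.54, 2.80 and 3.61 in the same sets. Ifi30 means in set B were 11.02 in Apoe-high cells and 11.1 in homeostatic-marked cells with middle Apoe, so that the 2 states differed little there. The pooled Ifi30 ratio was 0.81 when homeostatic-marked cells with middle Apoe, of which set B gave 853 of 1152, joined those with low Apoe.

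Dividing cells were found mostly in set B, which held 127 of the 151 myeloid cells with at least 3 of 9 proliferation markers (Mki67, Top2a and others) above 0. They had less Ctsb (18.4 against 29.9 in the 3310 other myeloid cells of set B, a ratio of 0.62) and a ratio of 0.67 for Ctsd (59.0 against 87.8), and had ratios of 1.46 for Lgmn (17.6 against 12.03) and 1.35 for Ifi30 (14.5 against 10.8). Ctsb was the only member past 1.5-fold in either direction, where 33.0% of all genes tested were higher and 16.7% lower. The dividing cells had a median of 711 genes above 0, against 550 in the others. In the same set, cells with 3 or more of 10 monocyte and macrophage markers had ratios of 0.82 for Ctss, 0.78 for Lgmn and 0.80 for Ctsl over cells with fewer, and between 0.91 and 1.08 for the other 7 genes. In that comparison 4.41% of genes were 1.5-fold or more higher and 1.88% lower. Cells with at least 3 markers of border macrophages (Mrc1, Pf4 and others) numbered 10 and were not described.

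The patterns of the 10 genes were compared with those of all genes across 38 points, each a class in a set with at least 30 cells, by Pearson correlation of log2(mean scaled value + 0.1) over 10288 genes. The points share sets and RNA from other cells, so the values are a description. The points mix myeloid and non-myeloid classes, and correlations between the members over them ran from 0.68 to 0.97, with a median of 0.83. Ctsd, Ctsb and Ctsz were most like each other (0.97 for each of the 3 pairs). Ctss was most like C1qb (0.97), and Lgmn most like Ctss (0.94). Ctsl was most like C1qa (0.96) and C1qc (0.95). C1qa, C1qb and C1qc are myeloid gate markers, so the gates set part of their own spread over these points. Ctsc was most like Fcgr1 (0.91), Ifi30 like Cyba (0.91), Ctsa like Ctsd (0.90) and Ctsh like Ctsc (0.87). Over the 22 myeloid points alone, correlations between the members ran from -0.15 to 0.90, with a median of 0.48. Only Ctss kept the same most alike gene there (C1qb, 0.96). Lgmn, for example, was most like Ly6e (0.89), Ctsz like Lgals3bp (0.91) and Ctsl like Itm2b (0.87). The gene most like Ctsd was Apoe (0.92), whose own spread over these points is set by the gates on Apoe.

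Partners of the 10 genes were compared between the same 2 pooled states, Apoe-high and homeostatic-marked with low Apoe. The state and the set cannot be told apart in the pooled ratios, counts and medians given for them. In that comparison 21.2% of all genes tested were 1.5-fold or more higher and 29.0% that much lower. Of the endogenous inhibitors, 4 of 7 had a mean of at least 0.5. Cystatin C (Cst3) averaged 113 in Apoe-high cells and 722 in homeostatic-marked cells with low Apoe, a ratio of 0.16, and had ratios of 0.41 and 0.65 within sets F and B. Cystatin F (Cst7), which inhibits Ctsc among others, was at 7.61 in Apoe-high cells and 0.132 in homeostatic-marked cells, while its ratio within set F was 2.51 and within set B 1.09. Cystatin B (Cstb) had a pooled ratio of 4.24 and ratios of 3.03 and 1.47 in sets F and B. For MHC class II presentation, 4 of 7 genes measured were higher in the pooled comparison and none lower, namely H2-Aa (16.3 against 0.103), H2-Eb1 (9.57 against 0.0792), H2-Ab1 (13.5 against 0.149) and the invariant chain Cd74 (43.8 against 0.767). In set F, H2-Aa was at 11.2 in Apoe-high and 3.47 in homeostatic-marked cells, and in set B at 18.3 and 12.97. The median ratio of the inhibitors was 4.26 and that of the MHC class II genes 57.1.

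Neu1 and Glb1, the neuraminidase and galactosidase that Ctsa protects, had pooled ratios of 2.79 and 2.36. Within sets F and B the ratios were 2.16 and 0.94 for Neu1 and 0.80 and 0.97 for Glb1. The counts that follow are of the pooled comparison, where 21.2% of all genes tested were higher and 29.0% lower. Of 13 other lysosomal hydrolases measured, 4 were higher and 2 lower, among the higher ones Naglu (2.38) and the acid lipase Lipa (1.99). Of 8 lysosome membrane genes, 2 were higher and 3 lower, among them Cd63 (5.77) and Laptm5 (0.29), which is a myeloid gate marker. Within sets F and B the ratios were 1.53 and 1.17 for Cd63 and 0.35 and 0.54 for Laptm5. Of 14 subunits of the proton pump of the lysosome, the vacuolar ATPase, 3 were higher and none lower, a share near the 21.2% of all genes. Atp6v0c had the largest ratio (2.84), with 1.35 in set F and 1.33 in set B. Of 4 genes of sorting to the lysosome, M6pr (0.54) and Sort1 (0.53) were lower. Of 7 regulators of lysosome genes, 3 were measured and all 3 were higher, among them Mitf at 4.68 and Irf1 at 1.99. Within set F, Mitf had a ratio of 1.75. Of 3 other cathepsins measured, Ctsf (0.37) was lower and Ctsw (0.625 against 0.0176) higher. Neither of the 2 saposin and progranulin genes, Psap (1.11) and Grn (0.88), passed 1.5-fold in the pooled comparison. Within set F, however, Grn was at 6.26 in Apoe-high and 15.6 in homeostatic-marked cells, a ratio of 0.40, and in set B its ratio was 0.83. Psap had ratios of 0.76 and 1.18 in sets F and B. The median ratio was 1.02 for the hydrolases, 0.71 for the membrane genes, 1.32 for the proton pump and 0.61 for sorting, beside 0.88 over all genes tested.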

How the data were processed

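Per the study's methods, the authors aligned reads to GRCm38 (Ensembl annotation) with Cell Ranger 7.1.0, intronic reads included, merged libraries in Seurat 4.3.0.1 and filtered cells on genes, UMIs and ribosomal and mitochondrial shares. On the deposited values, 12556 of the 13614 cells met the stated limits, and all were kept. The deposited values are whole numbers with similar totals per cell, so they were treated as a score and not as UMI counts. How they were made from counts is not given in the sources used here. A planned edgeR test of Nd6 EAE against WT EAE libraries was not run, since cells carry no library label and the values are no counts.

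Values were scaled to 10000 per cell (Python 3.11.15; numpy 2.4.6, pandas 2.3.3, scipy 1.17.1). Of 164 marker genes listed, 161 were in the table. Means were compared as ratios. A gene counted as tested in a comparison with a mean of at least 0.5 in either class, and as higher or lower past 1.5-fold. No doublet caller was run, and cells passing several lineage gates were left out. Shares have exact binomial 95% intervals, which cover counting error only. The ratio of means was tested on simulated data with known folds. The text names the 10 genes, gate markers, up to 4 genes per list with the largest ratio in either direction, and the genes most alike in pattern. The 10 genes, the lists, the motifs and the comparisons were chosen with earlier results of these data known.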

Additional observations from a re-analysis of the deposited data

How the results depend on the processing

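Each of the 10 pooled ratios of Apoe-high over homeostatic-marked cells was recomputed under 16 alternatives, of which comparing with all homeostatic-marked cells with Apoe below 500 was chosen after seeing the data. All alternatives but that one kept homeostatic-marked cells with low Apoe, most of them from sets D and E, as the reference. They therefore cannot tell the state and the set apart. Of 160 values, 152 kept their side of 1.5-fold. With Apoe below 500, 1 gene in place of 5 was past 1.5-fold higher (Ctsd), Ifi30 turned to 0.81, and Ctsa, Ctsb and Ctsz were at 1.47, 1.31 and 1.38. Ctsc passed 1.5-fold with the Apoe limit at 250 (1.51), with sets weighted equally (1.53) and, like Ctsh (1.63), with at most 1 marker of any other lineage (1.68). The cause was not tested. Over all alternatives, Ctsd ranged from 1.63 to 2.34, Ctss from 0.38 to 0.54 and Lgmn from 0.41 to 0.54. Of 110 myeloid to non-myeloid ratios under 11 alternatives, 109 stayed at 1.5 or more, and that of Ctsd was 1.44 as a ratio of shares of cells above 0. Not run were other fits of Nd6 against WT EAE libraries (another tool, no filter, libraries left out). No paired analysis was possible because cells carry no library label. With depth unknown, a mean near 0 is not evidence of absence.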
